A study of Mus musculus with 3 samples.

Results

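The PARP genes encode ADP-ribosyltransferases, and 9 of them, with the ubiquitin ligase gene Dtx3l whose product binds PARP9, are described here in nuclear RNA of mouse macrophages. They were taken by symbol through the gene identifiers of the deposited transcript annotation, and all 10 symbols matched 1 identifier each among 55536 annotated genes. The 3 libraries form a single group of C57BL/6J macrophages grown from bone marrow, which are primary cells. Every culture had been exposed to Lipid A at 100 ng/ml for 12 h, left without it for 12 h after washing, and exposed again to 100 ng/ml for 15 min, and the nuclear fraction was sequenced as total RNA after ribosomal depletion. The age and sex of the mice were not collected, per the labels, and the libraries are numbered as biological replicates but share 1 donor identifier. Whether they came from separate mice is not stated, so p-values measure only the spread between these libraries, which may be technical. No untreated culture was analysed here, so whether these genes were induced by interferon or Lipid A cannot be checked, and the values below are levels.

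ADP-ribosyltransferases move ADP-ribose from NAD onto proteins or nucleic acids, some building chains and most of the family adding single units. Several family members are known as interferon-stimulated genes, among them PARP9, PARP10, PARP11, PARP12 and PARP14, and their products act in antiviral defence and in the control of cytokine signalling in macrophages. Lipid A, the active part of bacterial lipopolysaccharide, signals through TLR4, and one arm of that pathway leads to interferon beta and from there to interferon-stimulated genes.

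The libraries held between 19312032 and 23826101 expected counts over annotated genes. All 8 macrophage markers were detected, where detected means a TPM (a level per transcript length, scaled so that all transcripts of a library sum to 1000000) of at least 1 in all 3 libraries. Of 22 markers from 7 lists of other blood and stromal cell types 0 were detected, their summed level lay between 2.59 and 5.68 TPM per library, and Ncr1, Ly6g and Mcpt4 were at 0 in every library. In bulk RNA, a lower level in each cell and fewer cells carrying the RNA cannot be told apart.

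The start regions of Dtx3l, Parp11 and Parp4 are printed first. Those of Parp11 and Dtx3l are used below for the isoforms of Parp11 and the pair of genes with overlapping starts. The Parp4 window and the upstream Parp11 window hold the motif marked in capitals. The windows of Parp1, Parp3, Parp8 and Parp12, which hold none, are not printed. Each sequence is the RefSeq window of GRCm38.p6 (the build called mm10), from 250 bases before to 50 bases after an annotated gene start, read 5′ to 3′ on the strand of the gene. Of the 10 genes, 7 were matched to such windows, 8 in all. Capitals mark the core of the interferon-stimulated response element, searched on both strands as GAAA, any 2 bases and GAAA. The Dtx3l window is at chr16:35938978-35939277 on the minus strand. The Parp11 windows are at chr6:127446590-127446889 and chr6:127453377-127453676 on the plus strand. The Parp4 window is at chr14:56575369-56575668 on the plus strand.
Dtx3l: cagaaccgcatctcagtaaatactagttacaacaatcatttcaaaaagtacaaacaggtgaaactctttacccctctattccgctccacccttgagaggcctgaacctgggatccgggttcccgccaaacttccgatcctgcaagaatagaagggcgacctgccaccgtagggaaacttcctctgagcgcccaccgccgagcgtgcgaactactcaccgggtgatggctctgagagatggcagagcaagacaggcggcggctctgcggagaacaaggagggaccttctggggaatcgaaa
Parp11 upstream start: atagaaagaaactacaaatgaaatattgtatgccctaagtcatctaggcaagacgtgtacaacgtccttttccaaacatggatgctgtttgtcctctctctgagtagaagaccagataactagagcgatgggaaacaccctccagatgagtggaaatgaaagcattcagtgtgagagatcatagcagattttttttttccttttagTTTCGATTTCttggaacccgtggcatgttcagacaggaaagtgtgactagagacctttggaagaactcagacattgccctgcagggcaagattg
Parp11 downstream start: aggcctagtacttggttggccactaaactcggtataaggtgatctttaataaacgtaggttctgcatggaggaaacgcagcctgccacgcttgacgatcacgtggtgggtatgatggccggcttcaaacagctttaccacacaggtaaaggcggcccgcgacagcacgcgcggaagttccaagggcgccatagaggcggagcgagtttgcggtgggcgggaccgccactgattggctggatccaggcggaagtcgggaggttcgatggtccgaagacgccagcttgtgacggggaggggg
Parp4: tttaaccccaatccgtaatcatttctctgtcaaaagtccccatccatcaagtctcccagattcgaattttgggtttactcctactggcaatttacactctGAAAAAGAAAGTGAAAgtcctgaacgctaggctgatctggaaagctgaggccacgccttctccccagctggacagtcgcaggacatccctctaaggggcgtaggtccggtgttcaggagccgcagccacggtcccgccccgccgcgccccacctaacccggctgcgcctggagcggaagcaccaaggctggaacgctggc

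Among the 7 genes with a window, Parp4 and Parp11 held this core and Parp1, Parp3, Parp8, Parp12 and Dtx3l did not. No window was matched to Parp9, Parp10 or Parp14, so this result does not cover them. The core is found in 3.44% of all 32851 windows of this length, and in 3.99% of the 27025 genes that have a window. In Parp4 there were 2 overlapping matches, starting 150 and 144 bases before the gene start. In the upstream window of Parp11 the match began 44 bases before the start, in the opposite orientation, and the downstream window held none. The same upstream window held 1 match to TTCNNNGAA (the STAT dimer site, present in 8.30% of windows), which overlaps the first match in 3 letters, and 1 to an NF-kappaB site (GGG, any 2 bases and TTTCC, in 1.63% of windows). These are matches of letters, and binding was not measured.

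The level of the family was led by a single gene. All 10 genes were detected, against 42.8% of the 22015 protein-coding genes encoded in the nucleus, and each lay above the median of the detected protein-coding genes. The median over the 10 genes was 5.68 ± 0.18 on the log2(TPM + 1) scale (SD, n = 3), and over the 9421 detected protein-coding genes it was 3.25 ± 0.10. In TPM these medians were 50.8 ± 6.25 and 8.51 ± 0.640. The 10 genes were chosen with earlier results of these data known, so these comparisons are not independent evidence. The 10 genes together held 595, 643 and 744 TPM in replicates 1, 2 and 3.

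Parp14 encodes a large PARP with macrodomains, known as a coactivator of STAT6. It lies on chromosome 16 from 35832874 to 35871544 on the minus strand. Its level was 263, 275 and 317 TPM in replicates 1, 2 and 3, a mean of 285 ± 28.5 TPM, from 55780, 41764 and 57813 expected counts. That placed it at rank 54 among the detected protein-coding genes, and it made up 43.2% ± 0.829 of the summed TPM of the 10 genes. The lowest Parp14 library stood above the highest library of every other member.

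Parp12, which encodes a zinc-finger PARP that acts against RNA viruses, was next. It had 65.3, 67.7 and 82.8 TPM in replicates 1, 2 and 3, with a mean of 71.9 ± 9.53 TPM, and lies on chromosome 6 from 39086410 to 39118349. Parp14 exceeded Parp12 by 1.98 ± 0.05 on the log2(TPM + 1) scale (SD, n = 3), a 3.96-fold ratio of mean TPM, and was higher in 3 of 3 libraries.

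Parp9 and Dtx3l encode the partners of a complex, PARP9 with macrodomains and DTX3L as the ubiquitin ligase. Dtx3l had 47.6, 64.0 and 59.4 TPM in replicates 1, 2 and 3, and Parp9 had 57.8, 65.2 and 77.2 TPM. Their means were 57.0 ± 8.47 TPM for Dtx3l and 66.7 ± 9.78 TPM for Parp9. Parp9 was the higher of the pair in 3 of 3 libraries. The difference of Dtx3l minus Parp9 was -0.23 ± 0.18 (log2(TPM + 1), SD, n = 3), and the exact sign-flip permutation test, two-sided, gave p = 0.25, the smallest value that 3 libraries allow. In replicate 2 the pair was nearly level, with a difference of -0.03, while the other libraries had -0.28 and -0.37.

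Parp10 encodes a PARP that adds single ADP-ribose units and lies on chromosome 15 from 76231174 to 76243441. It had 55.8, 40.5 and 75.6 TPM in replicates 1, 2 and 3, a mean of 57.3 ± 17.6 TPM. Replicate 2 was lowest and replicate 3 highest, a 1.86-fold range that was the widest of the 10 genes. Its SD of 0.44 on the log2(TPM + 1) scale stood at the 93.0th percentile of the 9863 protein-coding genes whose mean reached 1 TPM. Replicate 2 is the library made from 500 ng of RNA, against 1 µg for the others. It also had the fewest expected counts over annotated genes. Its mitochondrial mRNA made up 5.69% of TPM, against 3.67% in replicate 1 and 1.87% in replicate 3. The part of the input or of these other differences in the Parp10 value was not tested.

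Parp11 encodes a PARP with a WWE domain that is needed for sperm head shape in mice. It had 42.1, 60.2 and 55.2 TPM in replicates 1, 2 and 3, a mean of 52.5 ± 9.36 TPM, and lies on chromosome 6 from 127446840 to 127494261. Replicate 1 was lowest in TPM for Parp11 and for each of the other genes except Parp10, where it was in the middle, and Parp1. That order depends on the scaling. With TPM rescaled over the protein-coding genes encoded in the nucleus, replicate 2 was lowest for Parp3, Parp10, Parp12 and Parp14.

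**Figure D1:**
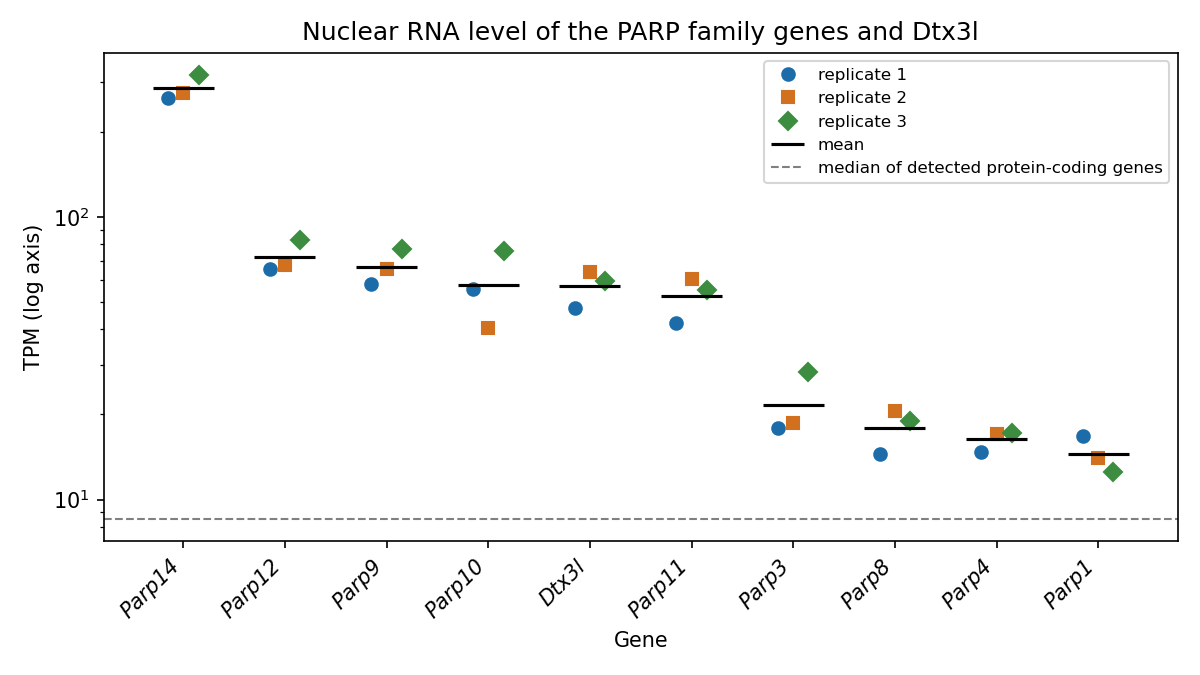
TPM of each gene in the 3 libraries on a log axis, with points for libraries, bars for means and a dashed line at the median of the detected protein-coding genes (8.51 TPM). Parp14 stands alone at the top, 5 genes lie between 40.5 and 82.8 TPM, and 4 lie between 12.5 and 28.3 TPM.

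The remaining 4 genes formed a lower tier. Parp3, which encodes a PARP acting at DNA strand breaks, had 18.0, 18.7 and 28.3 TPM in replicates 1, 2 and 3, a mean of 21.7 ± 5.77 TPM, with replicate 3 the highest. It lies on chromosome 9 from 106470322 to 106476949. Parp8, which encodes a less studied member that adds single units, had 14.5, 20.5 and 18.9 TPM, a mean of 18.0 ± 3.12 TPM, and lies on chromosome 13 from 116854820 to 117025537. Parp4, which encodes the PARP of the vault particle, had 14.8, 17.1 and 17.2 TPM, a mean of 16.3 ± 1.37 TPM, and lies on chromosome 14 from 56575619 to 56659794.

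Parp1, on chromosome 1 from 180568924 to 180601254, encodes the main builder of poly(ADP-ribose) chains after DNA damage. It had 16.8, 14.0 and 12.5 TPM in replicates 1, 2 and 3, a mean of 14.4 ± 2.17 TPM. Parp1 had the lowest mean of the 10 genes and was the only one of them whose highest value was in replicate 1.

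Parp11, the lowest of the upper 6 genes, exceeded Parp3, the highest of the lower 4, by 1.25 ± 0.35 (log2(TPM + 1), SD, n = 3) in 3 of 3 libraries. No library of the upper 6 genes fell below 40.5 TPM, and none of the lower 4 exceeded 28.3 TPM. Of the 9 pairs of neighbours in the order of mean TPM, 4 differed by more than the SD of their difference with the same sign in 3 of 3 libraries. They were Parp14 over Parp12, Parp12 over Parp9 (by 0.11 ± 0.06), Dtx3l over Parp11 (by 0.12 ± 0.05) and Parp11 over Parp3. With kallisto-format TPM the order turned in 2 of them, Parp12 minus Parp9 at -0.26 and Dtx3l minus Parp11 at -0.57. The other 5 pairs did not pass that limit. The library ranges did not overlap in 2 pairs, Parp14 with Parp12 and Parp11 with Parp3. The exact sign-flip permutation p was 0.25 or more for each pair, and 0.45 or more after Benjamini-Hochberg adjustment over the 9. The order was taken from these same values, so the signs lean towards it by construction. As 0.25 is the smallest p possible here, the test could not separate any pair.

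The counts behind these levels ranged from 1093 to 57813 per gene and library, so counting error alone was at most 3.02% of a value. The spread between libraries exceeded that in every gene. The median SD on the log2(TPM + 1) scale was 0.21 over the 10 genes and 0.20 over those 9863 genes. Parp4, with an SD of 0.12, and Parp14, with 0.14, varied least among the 10 on this scale, at the 20.3rd and 27.9th percentiles of the 9863.

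Expected counts were whole numbers, within 0.005, in all libraries for 6 genes. Those of Parp14, Parp9, Dtx3l and Parp10 were not, and a count that is not whole includes reads assigned in part. The 3′ part of Parp10 overlaps the annotated start of Plec (47.8 ± 8.48 TPM) by 1401 bases on the same strand, and of its 6 isoforms Parp10-205 alone reaches that stretch. Gm49730, a locus of unassigned class with 22.5 ± 2.12 TPM, lies within Parp14 over 1773 bases of the same strand. Dtx3l and Parp9 overlap by 682 bases on opposite strands. Nothing in the labels or headers says whether counting used strand, so whether reads of Dtx3l and Parp9 in their overlap were separated is not known. The levels of the 4 genes without whole counts are uncertain to the extent of the reads assigned in part. Parp3 overlaps Rrp9 (3.19 ± 0.217 TPM) by 987 bases on the opposite strand, with whole counts.

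Parp14, Dtx3l and Parp9 are neighbours on chromosome 16. Dtx3l runs from 35926511 to 35939151 on the minus strand and Parp9 from 35938470 to 35972605 on the plus strand. Their 5′ parts thus overlap on opposite strands, and each gene starts within the other. The 5′ end of Parp9-201, the highest Parp9 isoform, lies 140 bases from the GENCODE 5′ end of Dtx3l at 35939151. It lies within the Dtx3l window printed above, which is set on the RefSeq start of Dtx3l, a different base. Of the 7 annotated Parp9 isoforms 4 start in that window, and they held 78.4% ± 2.67 of the TPM of Parp9 (SD, n = 3). With kallisto-format values, from a separate quantification deposited for the same libraries, they held 53.0%. Parp14 begins 54966 bases away from the Dtx3l 3′ end, on the minus strand.

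The 6 other protein-coding genes within 100000 bases of this locus were detected at much lower levels. Kpna1, an importin alpha gene and the nearest beyond Parp9, had 6.95 ± 1.15 TPM, and Hspbap1, the nearest beyond Parp14, had 3.13 ± 0.726 TPM. The others lay between 1.33 TPM for Fam162a and 5.79 TPM for Dirc2. In every library, each of the 3 family genes was above all 6 of these genes. These neighbours were named for their position, after their values were seen.

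**Figure D2:**
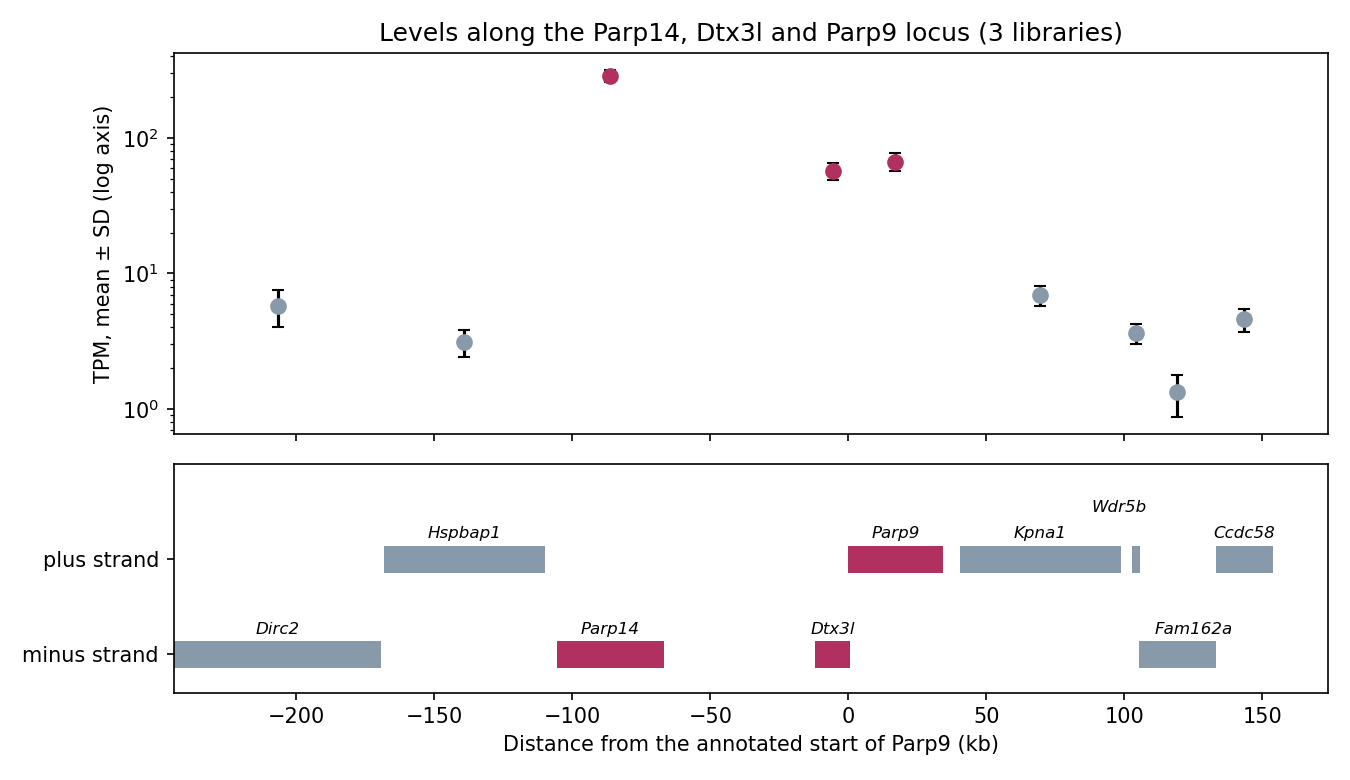
Upper panel, mean TPM ± SD (n = 3, log axis) of the protein-coding genes around Parp14, Dtx3l and Parp9, placed at the middle of each gene, and lower panel, their extent by strand in kb from the annotated start of Parp9. The 3 family genes in red lie between 57.0 and 285 TPM and the 6 flanking genes in grey between 1.33 and 6.95 TPM.

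The 10 genes have 56 annotated isoforms, of which 37 had a mean TPM of at least 1 and 7 were at 0 in every library. The highest isoform was annotated as protein-coding in all 10 genes, against 88.6% of the 9421 detected protein-coding genes. It was Parp14-201 with 201 ± 16.9 TPM, Dtx3l-201 with 55.7 ± 8.44 TPM, Parp12-201 with 48.9 ± 7.57 TPM and Parp9-201 with 33.9 ± 2.41 TPM. Dtx3l-201 held 97.8% of the TPM of its gene, Parp10-201 held 39.2% and Parp11-202, the lowest of these shares, 32.5%.

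Isoforms annotated as retaining an intron held a large part of several genes. Of the 9 genes that have such an isoform (Dtx3l has none), the share of the transcript TPM was 37.1% ± 1.25 in Parp11, 36.8% ± 1.36 in Parp8, 33.1% ± 11.4 in Parp3 and 32.2% ± 2.08 in Parp12 (SD, n = 3). It was 29.4% ± 1.08 in Parp14, 26.3% ± 3.74 in Parp9, 18.1% ± 4.42 in Parp1, 16.7% ± 8.50 in Parp4 and 13.2% ± 1.47 in Parp10. The median over the 9 genes was 29.4%, and over the 5980 detected coding genes that have one it was 24.0% ± 0.441. By expected counts, which give long isoforms more weight, the order turned, with 12.2% over the 9 genes and 13.5% over the 5980. Reads from RNA that was not yet spliced cannot be told apart from these isoforms in a nuclear library.

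The retained segments lay in different parts of the genes. Introns are counted here from the 5′ end of the highest isoform. Parp14-203 spans the whole of intron 5 of 16, which has 1665 bases, and had 49.2 ± 5.33 TPM. Parp14-202, with 34.8 ± 7.74 TPM, extends into intron 2. Parp12-202, with 23.0 ± 2.34 TPM, has 75.7% of its length in intron 9 of 11. Parp8-202 starts with the gene and has 90.4% of its 3436 bases in intron 2 of 25, at 5.22 ± 0.686 TPM. Parp11-210 lies wholly within intron 1 of Parp11-202, at 9.96 ± 1.48 TPM.

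With the other quantification, the share held by these isoforms moved by more than the SD between libraries in 7 of the 9 genes, the exceptions being Parp3 and Parp9. With kallisto-format values it was 31.3% ± 2.60 in Parp14, 36.6% ± 2.77 in Parp12, 31.7% ± 0.206 in Parp8 and 26.1% ± 2.56 in Parp9. It was 44.9% ± 1.92 in Parp11, 44.2% ± 7.57 in Parp3, 36.6% ± 6.42 in Parp1 and 24.9% ± 4.69 in Parp10, and 2.94% ± 1.58 in Parp4. The corresponding median over the 5980 genes was 28.4% ± 1.04. Parp11, Parp8, Parp3, Parp12 and Parp14 lay above the median of all genes in both sets of TPM, and Parp4 and Parp10 lay below it in both. By expected counts Parp12, at 11.2% ± 0.838, and Parp14, at 12.2% ± 0.559, were below the 13.5% of all genes, while Parp8, Parp3 and Parp11 stayed above it.

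**Figure D3:**
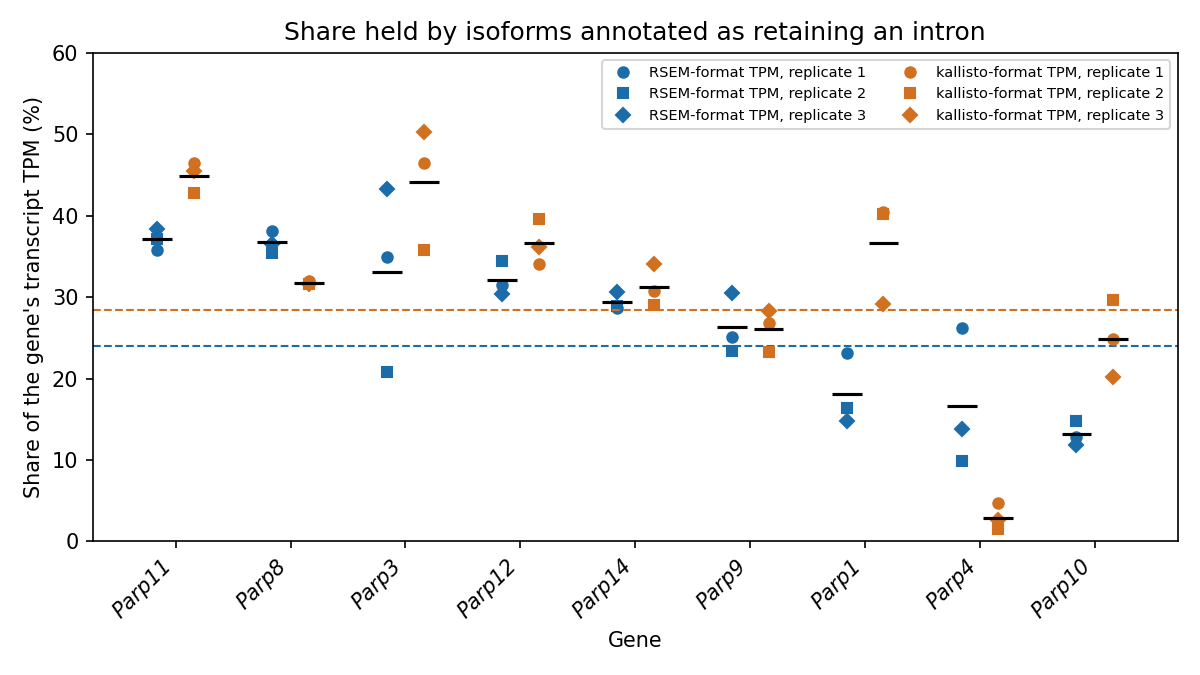
Share of each gene's transcript TPM in isoforms annotated as retaining an intron, by library (points) with means (bars), for both deposited quantifications, and dashed lines at the medians over 5980 genes (24.0% and 28.4%). The share in Parp1 is 36.6% with kallisto-format and 18.1% with RSEM-format values, and in Parp4 it is 2.94% and 16.7%.

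The gene with the largest share in isoforms annotated as targets of nonsense-mediated decay was Parp10 in the RSEM-format values and Parp9 in the kallisto-format values. Parp10-205, which starts near the 3′ end of Parp10, held 22.2% ± 1.59 of its gene, against a median of 3.78% ± 0.420 over 2958 genes with an isoform of this class (SD, n = 3). Its kallisto-format share was 8.37% ± 2.17, close to that set's median of 7.82% ± 0.361. By expected counts it was 7.62% ± 0.781, against a median of 1.74% ± 0.310. Parp10-205 is the isoform that reaches the overlap with Plec, and the part of Plec reads in its share was not tested. Such isoforms held 1.39% ± 0.766 of Parp9, and 20.5% ± 1.26 with kallisto-format values, where Parp9-207 supplied 19.3%.

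The annotated isoforms of Parp11 begin at separate places, and the 5′ ends of the RNA were not measured. Parp11-202, the highest isoform with 14.7, 18.1 and 18.0 TPM in replicates 1, 2 and 3, begins in the upstream window that holds the response element core, and it made up 32.5% ± 2.41 of the gene (SD, n = 3). Parp11-204, the other coding isoform that begins upstream of the downstream window, was listed at 0 in all libraries, and kallisto-format values gave it 17.7% of the gene and Parp11-202 24.3%. The upstream coding isoforms had 16.9 ± 1.94 TPM, and those that begin in or just after the downstream window, Parp11-201 and Parp11-203, together had 14.0 ± 2.88 TPM. With kallisto-format values the coding isoforms were farther apart, at 42.0% of the gene upstream and 10.2% downstream. The 8 isoforms that begin in or after the downstream window held 67.5% ± 2.41 of the gene, most of it in isoforms that are not annotated as coding. Among them Parp11-210, with 19.1% of the gene, lies wholly within intron 1 of Parp11-202. Its reads cannot be told apart from unspliced RNA that begins upstream, so these shares do not measure the use of each start.

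Both quantifications separated the same 6 genes from the same 4. Each set was rescaled to 1000000 over the protein-coding genes encoded in the nucleus, because these held only 19.9% to 22.2% of the RSEM-format TPM and 2.92% to 14.7% of the kallisto-format TPM. Parp14 then had 1133 ± 151 with kallisto-format values and 1366 ± 153 with RSEM-format values (rescaled TPM, SD, n = 3). Parp9, at 388 ± 48.1, and Parp11, at 338 ± 28.6, came ahead of Parp12, at 323 ± 44.2, in the kallisto-format order. Dtx3l was lower, at 223 ± 18.1, and the difference of Dtx3l minus Parp9 widened to -0.79 ± 0.13 (log2, 3 of 3 libraries, exact sign-flip permutation p = 0.25). The ratio of kallisto-format to RSEM-format means ran from 0.799 for Parp4 to 1.35 for Parp11. The gap between the 6 and the 4 genes was narrow in rescaled kallisto-format values. There Parp10 had 148 in replicate 2 and Parp3 had 138 in replicate 3, against 183 and 137 with rescaled RSEM-format values.

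**Figure D4:**
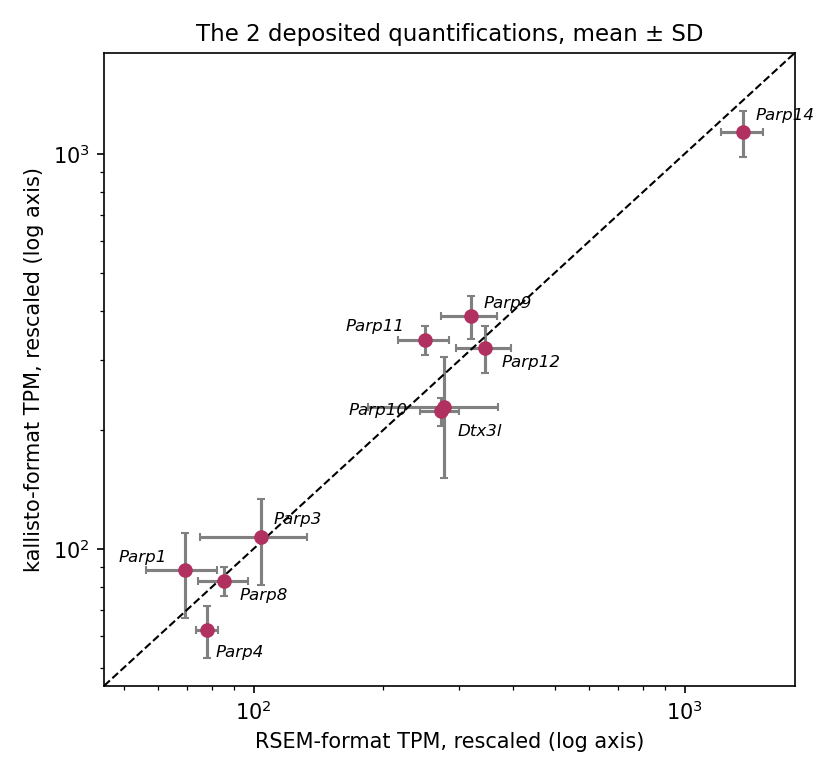
Mean ± SD (n = 3) of the rescaled TPM of each gene in the RSEM-format (x) and kallisto-format (y) values, on log axes with a dashed line of equality. Parp11 lies farthest above the line with a ratio of 1.35, and Parp4, at 0.799, farthest below it.

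Of the 7 other PARP genes 6 were detected, and their median was 4.08 ± 0.31 (log2(TPM + 1), SD, n = 3), below the 5.68 of the 10 genes above. Zc3hav1, which encodes the zinc-finger antiviral protein ZAP and is also known as PARP13, had 51.7, 71.5 and 69.2 TPM in replicates 1, 2 and 3, in the range of Parp12 and Dtx3l. The tankyrase genes Tnks2 and Tnks had 22.5 ± 4.97 and 18.4 ± 3.51 TPM, and Parp2, which acts beside PARP1 in DNA repair, had 16.2 ± 3.88 TPM. Tiparp, known as PARP7 and a target of the aryl hydrocarbon receptor, had 11.0 ± 0.391 TPM, and Parp6 had 5.98 ± 1.12 TPM. Parp16, which encodes a PARP of the endoplasmic reticulum, was not detected, at 0.323 ± 0.162 TPM.

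Genes that remove ADP-ribose or work with PARP1 were detected in 6 of 9 cases, with a median of 2.96 ± 0.14 (log2(TPM + 1), SD, n = 3). Xrcc1, a scaffold of DNA repair, had 23.2 ± 5.15 TPM, Parg, which degrades poly(ADP-ribose), had 13.0 ± 2.89 TPM, and Oard1, which removes terminal ADP-ribose, was the lowest detected at 4.29 ± 0.831 TPM. Of the 11 genes of NAD supply and use 8 were detected. Nadk, which makes NADP from NAD, had 41.0 ± 3.67 TPM, Nampt, the enzyme of NAD salvage from nicotinamide, had 32.8 ± 3.87 TPM, and Naprt was the lowest detected at 1.15 ± 0.110 TPM.

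All 24 genes of an interferon-stimulated list were detected, with a median of 7.10 ± 0.21 (log2(TPM + 1), SD, n = 3), above the median of the 10 genes. Parp14 lay within that list, below 7 of its genes. Rsad2 and Ifit2 led it, and Irf9, the DNA-binding subunit of the ISGF3 complex, was lowest at 23.1 ± 1.44 TPM. Only Irf9 had a mean below that of Parp11, so Parp12, Parp9, Parp10, Dtx3l and Parp11 lay near the lower end of the list. The list was chosen with the values of these libraries known and is not independent evidence.

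**Figure D5:**
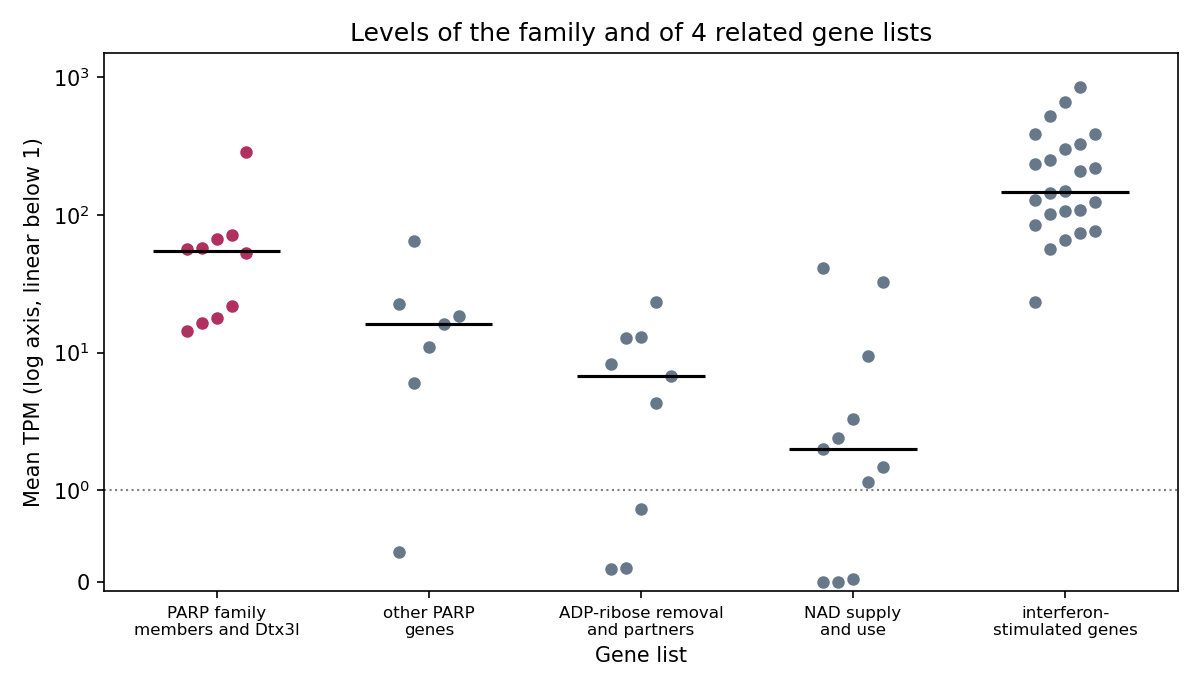
Mean TPM over 3 libraries of each gene (points) in the family and 4 related lists, with bars at list medians, on a log axis that is linear below 1 TPM (dotted line). The family's genes lie between 14.4 and 285 TPM, and the interferon-stimulated list starts at 23.1 TPM.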

How the data were processed

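Total RNA of the nuclear fraction was sequenced in 3 libraries of 1 group. Per the labels and file headers, reads were aligned to mm10 with GENCODE M21, and no quantification tool or version is stated there. The deposited expected counts are estimated counts per gene or transcript, in the columns RSEM writes. The deposited TPM, with a posterior mean, and FPKM are those values per effective length and scaled per library by the authors. A second deposited transcript file has estimated counts and TPM in the columns kallisto writes, and was summed per gene.

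Members were matched by symbol. The 26345 rows without an annotated gene were left out, and held 0.0547% to 0.827% of expected counts. Levels were analysed as log2(TPM + 1) with a detection limit of 1 TPM. Percentiles are over protein-coding genes. Differences within libraries were tested by exact sign-flip permutation, two-sided. Without a second group, no count model was fitted. The code was checked on data with known answers. All members, 7 other PARP genes and the 2 highest genes and the lowest detected gene of each other pathway list were named by rule. The members and lists were chosen with earlier results of these data known. Protein features that had been planned were not analysed here. Alternatives covered scaling, quantification, unit, pseudocount, threshold and the omission of each replicate. Python 3.11.15, pandas 2.3.3, numpy 2.4.6 and matplotlib 3.10.9 were used.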

Additional observations from a re-analysis of the deposited data

How the results depend on the processing

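All 10 genes were detected under each threshold (0.5 TPM, above 0), unit, scaling and quantification tried and without each replicate, and each kept its highest isoform. The median level, 5.68 on the log2(TPM + 1) scale, was 7.91 with rescaled TPM, 4.08 with kallisto-format TPM, 7.79 with both and 6.20 with FPKM, and 5.59 to 5.76 without single replicates. Dtx3l minus Parp9 stayed negative, from -0.79 to -0.15 over all alternatives, and from -0.32 to -0.15 without single replicates. The pairs of neighbours with the same sign in every library numbered 5, and 5 to 7 without single replicates. The median retained-intron share, 29.4%, was 12.2% of expected counts, which weight long isoforms more, and 27.9% to 29.8% without single replicates. Kallisto-format values turned the order of Parp12 minus Parp9 (-0.26, rescaled -0.27), Dtx3l minus Parp11 (-0.57, rescaled -0.60) and Parp4 minus Parp1 (-0.42, rescaled -0.48), and the cause was not tested. Parp10 minus Dtx3l ran from -0.21 (without replicate 3) to 0.28 (without replicate 2), against -0.03 over all libraries. Depth limits the lowest levels, such as Parp16 with 18, 26 and 15 expected counts and Naprt with 41, 38 and 45 in replicates 1, 2 and 3. No paired analysis was possible because the samples form 1 group, so that replicate numbers pair no samples across groups. The tests between genes were made within each library.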

Other observations

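By Euclidean distance in log2(TPM + 1) over the 3 libraries, the detected protein-coding genes nearest in level to Parp14 were Unc93b1 (distance 0.081, 287 ± 17.6 TPM, SD, n = 3), a chaperone of endosomal Toll-like receptors, H2-T23 (0.104, 281 ± 24.8 TPM), a nonclassical MHC class I gene, and Ddx5 (0.202, 289 ± 20.8 TPM), an RNA helicase gene. With 3 libraries of 1 group this measures a like level and nothing more.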
